A study of Mus musculus with 3 samples.

Results

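A set of 6 microRNAs whose genes respond to inflammatory signals or to the transcription factor CREB was measured in exosomes of mouse mesenchymal stem cells (MSCs). They are mmu-miR-146a-5p, mmu-miR-146b-5p, mmu-miR-155-5p, mmu-miR-132-3p, mmu-miR-212-3p and mmu-miR-212-5p, written without the species prefix from here on. These 6 of the 1881 mouse miRNAs on the array were taken by their exact names in the array files, with every probe printed for them. All 6 were on the array, and 5 were measured on all 3 arrays. miR-212-5p was not detected on any array.

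The study asked how low oxygen changes the exosomes that MSCs release, with heart repair as its setting. MSCs came from the bone marrow of male wild type C57BL/6 mice aged 4 to 6 weeks, adhered to plastic, grew in medium with 10% fetal bovine serum and were used at passages 3 to 6. H+G-Exo are the exosomes released under hypoxia by MSCs that also received GW4869, an inhibitor of neutral sphingomyelinase that lowers ceramide-dependent exosome release. H-Exo were released under hypoxia without the inhibitor, and N-Exo under normoxia. The exposure lasted 24 h in each case, and medium from 10 dishes was cleared of cells and larger vesicles before the exosomes were pelleted by ultracentrifugation. No genetic change distinguishes the groups. Each group is 1 one-colour array, whereas the series design mentions 3 samples per exosome kind, and whether RNA was pooled is not stated. GW4869 was given only together with hypoxia, so its effect under normoxia was not measured. The labels' protocols name kits that amplify cRNA and make cDNA, which are unusual for a miRNA array, so the labelling of the hybridized RNA is uncertain.

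A miRNA is a short RNA that guides the Argonaute complex to messenger RNAs, mainly through its seed, the stretch from base 2 to base 8. Transcription of the miR-146a gene is switched on by NF-kB downstream of Toll-like and cytokine receptors, and miR-146a and miR-146b repress the adaptors Irak1 and Traf6 in a negative feedback loop. miR-155 is cut from the noncoding transcript Mir155hg, is induced by the same kinds of signal in immune and other cells, and represses the signalling brakes Socs1 and Inpp5d. miR-132 and miR-212 come from 1 locus driven by CREB, are best known from neurons, and have among their targets Arhgap32 and Rasa1, a Ras inhibitor repressed by miR-132 in growing blood vessels.

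The mature sequences show which of the 6 can share targets and which can share probe signal. They were taken from RefSeq (GRCm38.p6), where all 6 members were found, and are written 5′ to 3′ with the seed in capitals.
miR-146a-5p: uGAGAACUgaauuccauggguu
miR-146b-5p: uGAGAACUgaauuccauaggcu
miR-155-5p: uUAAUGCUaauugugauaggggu
miR-132-3p: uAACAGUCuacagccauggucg
miR-212-3p: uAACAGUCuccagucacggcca
miR-212-5p: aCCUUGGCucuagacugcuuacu
miR-146a-5p and miR-146b-5p share their seed with each other and with no other mouse miRNA of that table, and the same holds for miR-132-3p and miR-212-3p. The seeds of miR-155-5p and miR-212-5p each occur once in it. Counted from 1 at the 5′ end, miR-146b-5p differs from miR-146a-5p at 2 of 22 bases, G18A and U21C. miR-212-3p differs from miR-132-3p at 5 of 22 bases, A10C, C14U, U17C, U20C and G22A.

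In GRCm38.p6, miR-146a-5p lies at chr11:43374435-43374456 on the minus strand. miR-146b-5p lies at chr19:46342790-46342811 on the plus strand, inside the span of the long noncoding RNA gene Gm36493. miR-155-5p lies at chr16:84714143-84714165 on the plus strand, inside the span of its host gene Mir155hg, also a long noncoding RNA gene. The miR-212 and miR-132 hairpins are neighbours on the plus strand of chromosome 11, with 203 bases between them: miR-212-5p at chr11:75173403-75173425, miR-212-3p at chr11:75173443-75173464 and miR-132-3p at chr11:75173723-75173744. Exon and intron positions were not looked up.

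The array reads each of the 6 with 2 probes, 1 base different in length and placed at 15 spots each. The brighter probe stands for the miRNA in what follows, and its sequence shows how far the probes of a family pair can tell their targets apart. Capitals mark bases that pair with a position at which the partner miRNA differs.
probe for miR-146a-5p: aAccCatggaattcagttc
probe for miR-146b-5p: aGccTatggaattcagttc
probe for miR-155-5p: acccctatcacaattagc
probe for miR-132-3p: CgAccAtgGctgTaga
probe for miR-212-3p: TgGccGtgActgGa
probe for miR-212-5p: agtaagcagtctagagcc
The 2 miR-146 probes are 19 bases long, pair with bases 4 to 22 and have 2 mismatches to the other miR-146, so signal can cross between them and their separate values are uncertain. The probes for miR-132-3p and miR-212-3p have 16 and 14 bases and hold all 5 differing positions. Probe GC content was 42.1% for both miR-146 probes, 44.4% for miR-155-5p, 56.2% for miR-132-3p and 64.3% for miR-212-3p.

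The arrays differed in overall brightness. The 75th percentile of processed signal over the 1119 probes detected on all arrays was 468.9 in H+G-Exo, 235.0 in H-Exo and 417.3 in N-Exo, and 675, 586 and 685 miRNAs were detected in that order of groups. Signals are given as multiples of this percentile, called scaled signal, and each is a mean ± SD over the unflagged spots of 1 probe on 1 array. This SD is technical: with 1 array per group there is no spread between samples, no test was possible and no p-value is given. A miRNA was called higher or lower where it was detected on both arrays (over 50% of its spots well above background), the fold was 2 or more, and the log2 difference exceeded 2 standard errors (SE) over spots. Of 10 miRNAs typical of mesenchymal stromal cells, 10 were detected in H+G-Exo, 9 in H-Exo and 10 in N-Exo. Of 7 blood cell miRNAs, 3 were detected in H+G-Exo, 2 in H-Exo and 2 in N-Exo, with summed scaled signals over all 7 of 0.180, 0.363 and 0.287. Myeloid miR-223-3p and erythroid miR-451a were detected on all arrays and miR-486a-5p in H+G-Exo only. The arms of miR-142a, miR-144 and miR-150 among these 7 were detected on no array. miR-150-3p, which is not among the 7, was detected on all arrays. Endothelial miR-126a was not detected on any array.

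miR-146a-5p was brightest in N-Exo. Its scaled signal was 0.270 ± 0.0191 in H+G-Exo (SD, 14 spots), 0.252 ± 0.0203 in H-Exo (15 spots) and 1.10 ± 0.0319 in N-Exo (14 spots). Spots ran between 0.246 and 0.316 in H+G-Exo, between 0.219 and 0.280 in H-Exo and between 1.04 and 1.17 in N-Exo, so the 2 hypoxic arrays overlapped each other and stayed clear of N-Exo. On the scaled signal the order of its levels was therefore N-Exo first, with H+G-Exo and H-Exo not separated by their spots. Before scaling, spots ran between 115 and 148 in H+G-Exo and between 51.5 and 65.7 in H-Exo. The overlap of the 2 hypoxic arrays thus depends on scaling. In a bulk preparation like this, fewer exosomes that carry a miRNA and fewer copies per exosome cannot be told apart.

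miR-146b-5p followed with the same highest group. The scaled signal was 0.274 ± 0.0171 in H+G-Exo (15 spots), 0.364 ± 0.0349 in H-Exo (15 spots) and 1.02 ± 0.0425 in N-Exo (14 spots). Spots reached at most 0.313 in H+G-Exo, began at 0.310 in H-Exo and began at 0.955 in N-Exo. Unlike miR-146a-5p, it was thus higher in H-Exo than in H+G-Exo on this scale, with spot ranges that only touched. Before scaling the order of these arrays was the reverse, with mean signals of 128.5 in H+G-Exo and 85.6 in H-Exo.

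By its brighter probe, miR-155-5p separated all 3 arrays. Its scaled signal was 0.808 ± 0.0656 in H+G-Exo, 1.15 ± 0.105 in H-Exo and 2.26 ± 0.101 in N-Exo (15 spots each). The 3 spot ranges did not overlap: the highest H+G-Exo spot was at 0.899, the H-Exo spots lay between 1.01 and 1.31, and the lowest N-Exo spot was at 2.07. Before scaling, H+G-Exo was above H-Exo, with mean signals of 378.9 and 270.8.

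miR-132-3p was dim on every array. Scaled signals were 0.0530 ± 0.00873 in H+G-Exo (14 spots), 0.0830 ± 0.0161 in H-Exo (15 spots) and 0.157 ± 0.0153 in N-Exo (14 spots). Of these spots, 11 were well above background in H+G-Exo, 9 in H-Exo and 14 in N-Exo. The H+G-Exo level is below 0.0653, the floor applied before log2 was taken, so a fold change against it is a bound. Spots of H+G-Exo and H-Exo overlapped, and both arrays stayed below the lowest N-Exo spot of 0.136.

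miR-212-3p, cut from the same locus, was not ordered like the others. Its scaled signal was 0.373 ± 0.0768 in H+G-Exo, 1.19 ± 0.267 in H-Exo and 1.09 ± 0.221 in N-Exo (15 spots each). Every H+G-Exo spot, up to 0.457, was below every spot of H-Exo and of N-Exo, while H-Exo (0.779 to 1.48) and N-Exo (0.720 to 1.31) overlapped almost fully. Its SD was the widest of the 5, and its spots fell into 2 brightness levels that followed their place on the array only in part. The right side held the upper level alone. The left side held both levels, with spots up to 0.454 in H+G-Exo, 1.42 in H-Exo and 1.28 in N-Exo. In the left 82 of the 164 spot columns the mean was 0.320 in H+G-Exo, 0.984 in H-Exo and 0.926 in N-Exo (8 spots each), and in the right 82 columns 0.433, 1.42 and 1.28 (7 spots each). Its low level in H+G-Exo was present on both sides. Before scaling, its mean signal was 174.8 in H+G-Exo, 278.6 in H-Exo and 454.9 in N-Exo. There the highest H+G-Exo spot, at 214, was above the lowest H-Exo spot, at 183.

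miR-212-5p, the opposite arm of the miR-212 hairpin, had a scaled signal of -0.00605 ± 0.00548 in H+G-Exo, -0.00712 ± 0.00841 in H-Exo and 0.00113 ± 0.00780 in N-Exo. None of 15 spots was well above background on any array (0 of 15 on each), so no fold is given. The other arms of the remaining hairpins, miR-146a-3p, miR-146b-3p, miR-155-3p and miR-132-5p, were likewise not detected on any array (0 of 4). In N-Exo, 5 of 15 spots of miR-155-3p and 3 of 15 of miR-132-5p were well above background, against 0 in H+G-Exo and in H-Exo. The array software called both arms detected in N-Exo only. Their scaled signals were not highest there: miR-155-3p had 0.0394 in N-Exo and 0.0491 in H-Exo, and miR-132-5p 0.0406 and 0.0451. Before scaling both arms were highest in N-Exo. The mean signals were 16.4 in N-Exo and 11.5 in H-Exo for miR-155-3p, and 16.9 and 10.6 for miR-132-5p.

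**Figure D1:**
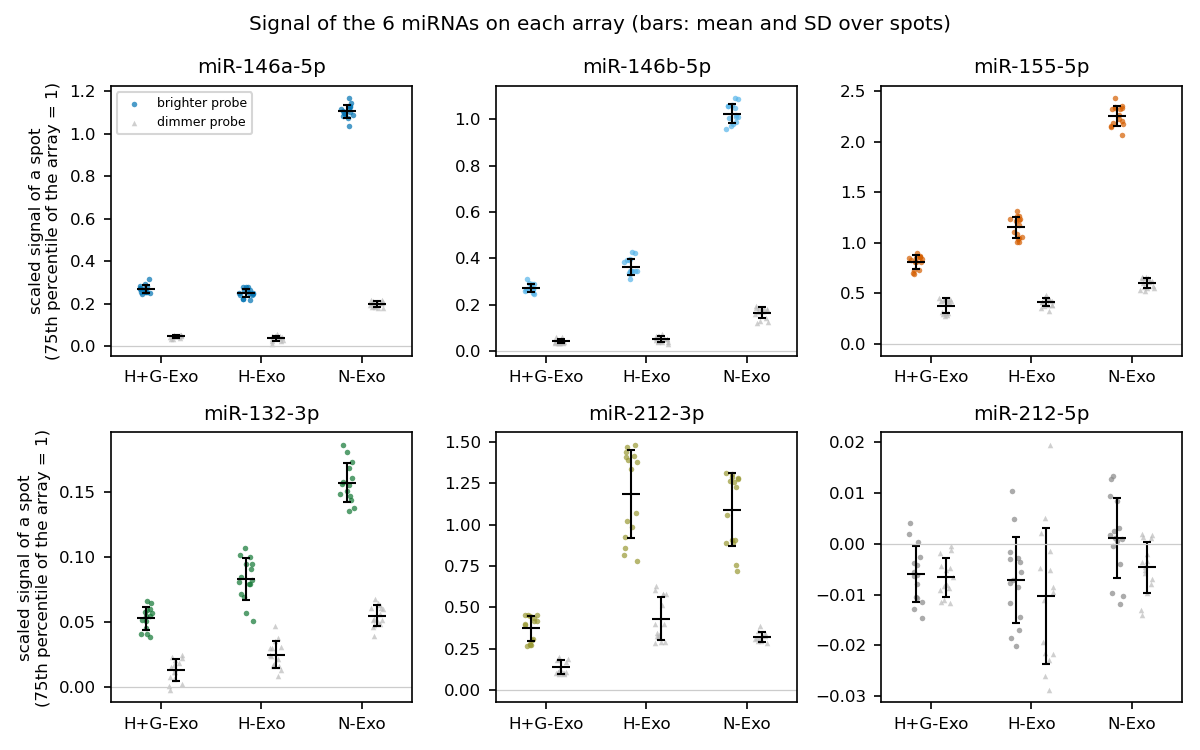
Scaled signal of every unflagged spot (vertical axis, array's 75th percentile = 1) for the 6 miRNAs in H+G-Exo, H-Exo and N-Exo, with coloured circles for the brighter probe, grey triangles for the dimmer probe, and bars for mean and SD over spots. N-Exo stands above both hypoxic arrays for miR-146a-5p, miR-146b-5p, miR-155-5p and miR-132-3p, miR-212-3p is low only in H+G-Exo, and miR-212-5p scatters around 0.

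The first comparison asks what hypoxia did without the inhibitor. In this hypoxia contrast (H-Exo over N-Exo), 2 of the 5 measured members were called lower and 0 higher. Among all 582 miRNAs measured on both arrays, 10.7% were lower and 4.3% higher, 14.9% in either direction. The members' median log2 difference was -0.97, against 0.34 over all 582. Among the 285 measured miRNAs with a number under 3000, the earlier named ones, 21.8% were lower and the median was 0.10.

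The pair called lower was the miR-146 family. miR-146a-5p was 4.39-fold lower in H-Exo (log2 difference -2.13, SE 0.032) and took the 5th lowest place of 582. miR-146b-5p was 2.81-fold lower (log2 difference -1.49, SE 0.039), in 22nd place. At spots matched by position, all 14 matched positions of each probe were lower in H-Exo.

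miR-155-5p, the other NF-kB responsive member, was 1.96-fold lower (log2 difference -0.97, SE 0.038), just short of the 2-fold rule, and lower at 15 of 15 matched positions. miR-132-3p was 1.89-fold lower (log2 difference -0.92, SE 0.081), also short of it, and its value was 0.04 with normexp background correction. That correction was run with an offset of 50 added to every signal, which compresses the ratios between dim signals before scaling. The mean miR-132-3p signal before scaling was 19.5 in H-Exo and 65.6 in N-Exo. miR-212-3p had a log2 difference of 0.12 (SE 0.11), within 2 SE of no difference. Unscaled, the same signals were 7.79-fold, 4.99-fold, 3.48-fold, 3.36-fold and 1.63-fold lower in H-Exo for miR-146a-5p, miR-146b-5p, miR-155-5p, miR-132-3p and miR-212-3p.

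The second comparison asks what GW4869 changed under hypoxia. In this inhibitor contrast (H+G-Exo over H-Exo), 1 of the 5 measured members was called lower and 0 higher, where 26.1% of 566 measured miRNAs were lower and 6.18% higher, 32.3% in either direction. The members' median log2 difference was -0.41, against -0.42 over all 566. Among the 274 with a number under 3000, 39.1% were lower and the median was -0.73.

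The member called was miR-212-3p, 3.18-fold lower with the inhibitor (log2 difference -1.67, SE 0.11), in 34th place from the lowest, and lower at 15 of 15 matched positions. Its locus partner miR-132-3p had a log2 difference of -0.35 with H+G-Exo at the floor, and -0.65 without the floor. miR-155-5p had -0.51 (SE 0.046), miR-146b-5p -0.41 (SE 0.043) and miR-146a-5p 0.10 (SE 0.041), none past 2-fold. This comparison depends on scaling: without scaling, miR-146a-5p was higher in H+G-Exo by a log2 difference of 1.09, and miR-212-3p had -0.67, no longer past the rule.

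The third comparison, the combined contrast, sets hypoxia with the inhibitor against normoxia (H+G-Exo over N-Exo). It shares 1 array with each of the others, so the 3 comparisons are not independent. All 5 measured members were called lower, where 26.1% of 606 measured miRNAs were lower and 18.3% higher, 44.4% in either direction. Their median log2 difference was -1.55, against -0.05 over all 606. Among the 295 with a number under 3000, 44.1% were lower and the median was -0.70.

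Here miR-146a-5p was 4.10-fold lower (log2 difference -2.03, SE 0.029), miR-146b-5p 3.74-fold (-1.90, SE 0.028) and miR-155-5p 2.79-fold (-1.48, SE 0.035). miR-212-3p was 2.92-fold lower (log2 difference -1.55, SE 0.11). miR-132-3p was at least 2.41-fold lower, since its H+G-Exo signal is below the floor. Matched positions were lower in H+G-Exo without exception for each of the 5 probes, 13 of 13 or 14 of 14 for the miR-146 pair, 13 of 13 for miR-132-3p and 15 of 15 for the others. In rank from the lowest, miR-146a-5p was 62nd, miR-146b-5p 75th, miR-212-3p 101st and miR-155-5p 107th of 606.

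**Figure D2:**
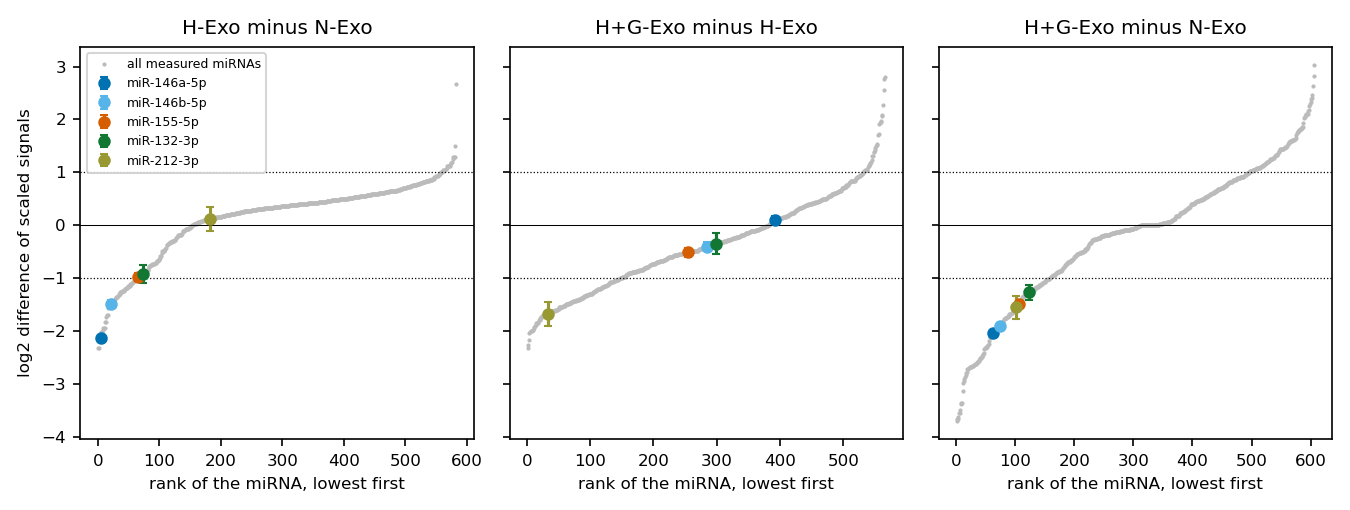
Log2 difference of scaled signals (vertical axis) of all measured miRNAs in rank order (horizontal axis, lowest first) in grey for each comparison, with the 5 measured members in colour and bars of 2 SE over spots; dotted lines mark 2-fold. miR-146a-5p sits in 5th place of 582 in H-Exo minus N-Exo, miR-212-3p in 34th of 566 in H+G-Exo minus H-Exo, and in H+G-Exo minus N-Exo all 5 are under the lower line, with miR-132-3p drawn at its floor.

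Setting partners that share a seed against each other removes any scaling that is common to an array. miR-146a-5p minus miR-146b-5p, the difference of their log2 differences, was -0.64 (SE 0.051) in the hypoxia contrast, so miR-146a-5p was the lower of the pair relative to N-Exo. It was 0.51 (SE 0.059) in the inhibitor contrast and -0.13 (SE 0.041) in the combined one. Possible cross-signal between these 2 probes bears on these values and was not measured.

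For the CREB locus the gap by the main values was wider in the hypoxia and inhibitor contrasts and narrower in the combined one. The value of miR-132-3p minus miR-212-3p was -1.04 (SE 0.14) in the hypoxia contrast and 1.02 (SE 0.15) in the inhibitor contrast, without the floor. In the combined contrast it was -0.02 (SE 0.13), and its interval of 2 SE ran between -0.28 and 0.24. The miR-132-3p side rests on dim spots, and these values depend on how such spots were treated. With normexp background correction and its offset of 50 they were -0.04 in the hypoxia contrast, 0.60 in the inhibitor contrast and 0.56 in the combined one. In the deposited value table they were -1.59, -0.84 and -2.43 in the same order, so across these settings the value stayed below 0 in the hypoxia contrast and changed sign in the other 2.

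**Figure D3:**
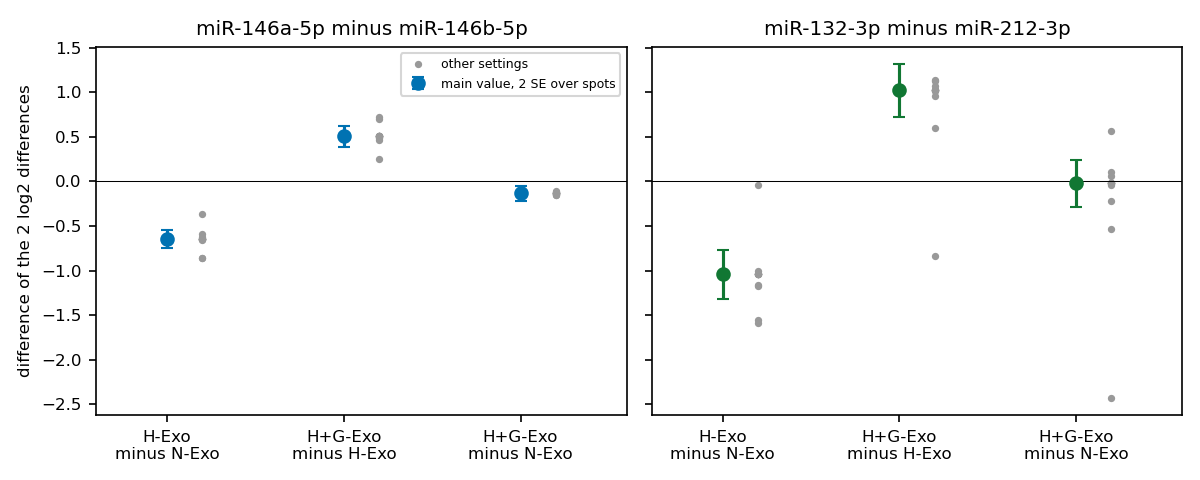
Difference between the log2 differences of miR-146a-5p and miR-146b-5p (left) and of miR-132-3p and miR-212-3p (right) in each comparison, with the main value and 2 SE over spots in colour and all other settings as grey points. The miR-146 points keep their side of 0 in each comparison, whereas the miR-132 pair has settings near 0, across it, or as low as -2.43.

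The second, shorter probe gave a partial check within each array. For miR-155-5p the brighter probe exceeded the dimmer one 2.14-fold in H+G-Exo, 2.80-fold in H-Exo and 3.76-fold in N-Exo, so the dimmer probe gave smaller differences: a log2 difference of -0.55 in the hypoxia contrast and -0.67 in the combined one, neither past the rule. The dimmer probe did not separate the 2 hypoxic arrays. Its scaled signal was 0.377 in H+G-Exo (spots between 0.271 and 0.456) and 0.412 in H-Exo (spots between 0.325 and 0.478). For miR-212-3p the ratio was 2.69 in H+G-Exo, 2.74 in H-Exo and 3.37 in N-Exo, and the dimmer probe gave -1.65 in the inhibitor contrast, -1.22 in the combined contrast and 0.42 in the hypoxia contrast. In N-Exo 3 of the 15 spots of that dimmer probe were left out as outliers. The 12 kept lay between 0.285 and 0.386, whereas its H-Exo spots spread between 0.288 and 0.631. How the left-out spots bear on the 0.42 and the -1.22 was not tested. The dimmer miR-146a-5p probe was detected in H+G-Exo and N-Exo, with scaled signals of 0.0473 and 0.200. Its log2 difference of -1.62 between them is a bound, since the H+G-Exo signal is below the floor of 0.0653. The dimmer probes of miR-146b-5p and miR-132-3p were detected in N-Exo only.

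How the arrays were put on 1 scale set the size of several values. Over 7 scalings, miR-146a-5p ran between -2.97 and -2.13 in the hypoxia contrast and miR-146b-5p between -2.33 and -1.49, both past the rule in 7 of 7. Normexp background correction, with its offset of 50, gave smaller differences, -1.36 for miR-146a-5p and a value right at the 2-fold limit for miR-146b-5p. miR-155-5p ran between -1.81 and -0.93 (past the rule in 5 of 7) and miR-132-3p between -1.76 and -0.92 (6 of 7). miR-212-3p ran between -0.72 and 0.12, past the rule in 0 of 7 and below 0 in 4. All 5 were past the rule under each of the 7 in the combined contrast. For the inhibitor, the sign of miR-146b-5p, miR-155-5p and miR-132-3p changed among scalings, and miR-212-3p was past the rule in 4 of 7.

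**Figure D4:**
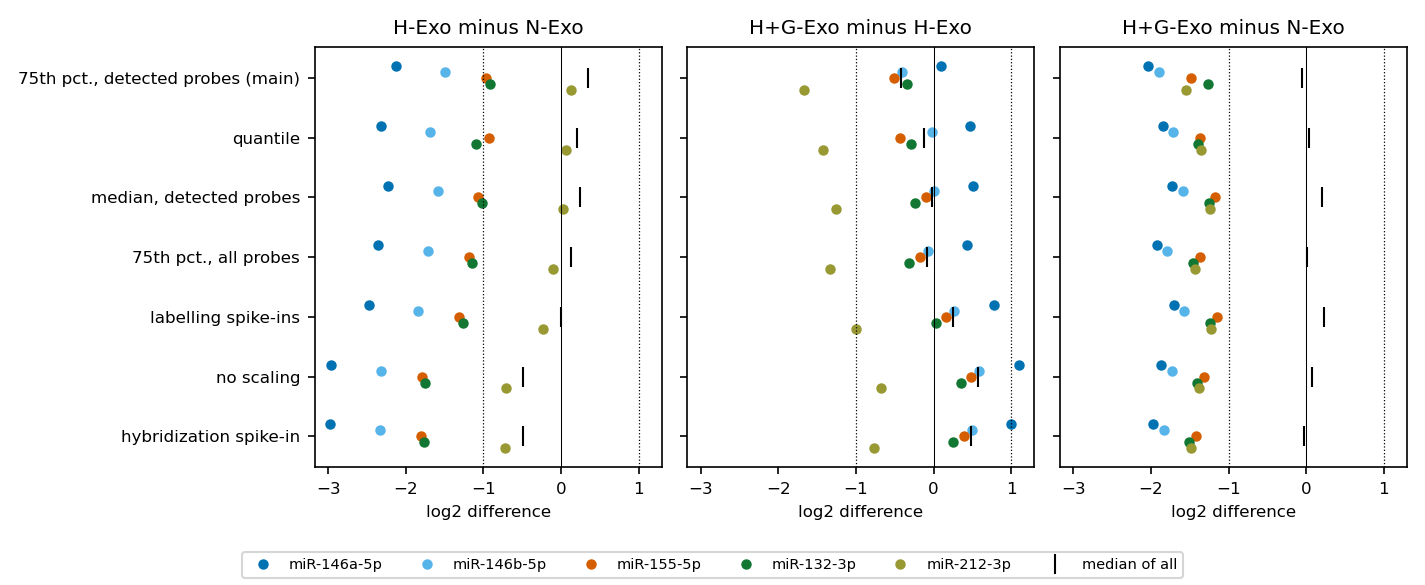
Log2 difference (horizontal axis) of the 5 measured members under 7 ways to scale the arrays (rows), with the median of all measured miRNAs as a black tick and dotted lines at 2-fold. In H-Exo minus N-Exo miR-146a-5p and miR-146b-5p stay left of the lower line in every row, in H+G-Exo minus N-Exo all 5 do, and in H+G-Exo minus H-Exo miR-146b-5p, miR-155-5p and miR-132-3p lie on both sides of 0, miR-146a-5p stays above it and miR-212-3p below it.

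Probe GC content moved with the differences, and its part in them was not tested. Over the 82 measured miRNAs whose probe GC is within 5 percentage points of the miR-146 probes, the median log2 difference was -0.73 in the hypoxia contrast, and over the 178 near the miR-212-3p probe it was 0.41. The miR-146 values of -2.13 and -1.49 were below their window's median, and the miR-212-3p value of 0.12 was below its own. For the inhibitor the window medians were -1.02 for the miR-146 probes and -0.23 for miR-212-3p, so that miR-146a-5p at 0.10 was above its window and miR-212-3p at -1.67 below. In the combined contrast they were -1.58 for the miR-146 probes, -1.71 for miR-155-5p and 0.05 for miR-212-3p, and there miR-155-5p at -1.48 was above its window's median. Taking only miRNAs numbered under 3000, the window median in the combined contrast was -2.06 for the miR-146 probes, so that miR-146a-5p at -2.03 and miR-146b-5p at -1.90 were slightly above it. In the hypoxia contrast the windows under 3000 stood at -0.95 for the miR-146 probes, above both of them, and at -0.98 for miR-155-5p, level with its -0.97.

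Other miRNAs tied to inflammation were set beside the members from a list of 19, of which 14 were measured in each comparison. Under hypoxia alone 4 of the 14 were lower and 0 higher (median -0.85). Of all measured miRNAs 10.7% were lower there, and of those numbered under 3000 21.8%. The largest differences were those of miR-23b-3p, which represses activators of NF-kB (4.03-fold lower), miR-199a-3p (3.53-fold) and let-7i-5p, a repressor of the receptor TLR4 in human cells (2.38-fold). With the inhibitor over hypoxia 9 of 14 were lower (median -1.17), led by miR-125a-5p (4.77-fold), let-7e-5p (3.44-fold) and miR-23b-3p (3.13-fold). The shares lower were 26.1% of all measured miRNAs and 39.1% of those numbered under 3000. Over normoxia, H+G-Exo had 12 of 14 lower (median -2.09), led by miR-23b-3p (12.6-fold), miR-199a-3p (10.3-fold) and miR-21a-5p (6.40-fold), and 0 were higher. Here 26.1% of all measured miRNAs and 44.1% of those numbered under 3000 were lower. Whether the list goes beyond these shares was not tested. Detected in N-Exo only, miR-181a-5p was lower by at least 5.26-fold (H+G-Exo) and at least 3.03-fold (H-Exo); such a bound sets the N-Exo signal over the higher of the lowest detected signal and the miRNA's own signal on the other array.

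Of the 11 other CREB- or activity-linked miRNAs only 2 were measured on both arrays of each comparison. miR-134-5p, a regulator of dendritic spines that represses Limk1, had log2 differences of 0.42 in the hypoxia contrast, 0.44 in the inhibitor contrast and 0.86 in the combined one. miR-188-5p had -0.04, 0.11 and 0.07 in that order, and 0 of these 6 values passed the rule. The other list members detected on any array were miR-9-3p and miR-128-3p, both in N-Exo only. For miR-9-3p, which stands on the inflammation list too, the bounds against N-Exo were at least 6.30-fold (H+G-Exo) and at least 3.29-fold (H-Exo) lower. For miR-128-3p they were at least 2.24-fold (H+G-Exo) and at least 1.29-fold (H-Exo) lower. Of the 4 neuronal markers, only miR-128-3p was detected, in N-Exo.

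miRNAs typical of stromal cells were lower in the same comparisons. Their summed scaled signal over 10 miRNAs was 55.1 in H+G-Exo, 138.6 in H-Exo and 314.4 in N-Exo, and 7 of 9 measured ones were called lower in the hypoxia contrast, 7 of 9 in the inhibitor contrast and 10 of 10 in the combined one. Over all measured miRNAs, 10.7%, 26.1% and 26.1% were called lower in that order of contrasts. Among those numbered under 3000 the shares were 21.8%, 39.1% and 44.1%. miR-21a-5p, miR-125b-5p and miR-199a-3p stand on both that list and the inflammation list. The part of these lower levels in the members' values was not tested.

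**Figure D5:**
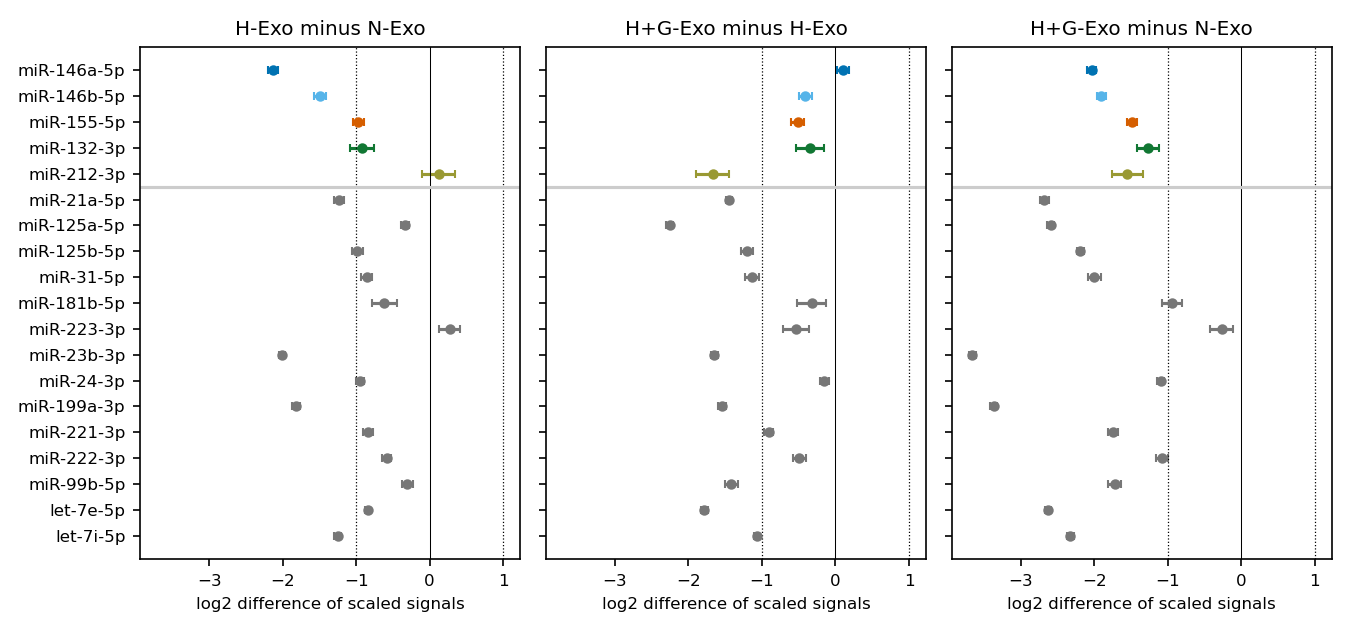
Log2 difference of scaled signals (horizontal axis, bars of 2 SE over spots) of the 5 measured members (coloured, top) and 14 other inflammation-linked miRNAs (grey) in the 3 comparisons, with dotted lines at 2-fold. In H+G-Exo minus H-Exo miR-146a-5p stands at 0.10 while the grey points all lie below 0, and in H+G-Exo minus N-Exo all 5 members and 12 of the 14 others are left of the lower line.

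The miRNAs with the most similar values across the 3 arrays were found among 561 measured on all of them, by the distance between their pairs of log2 differences (of the hypoxia and the inhibitor contrast). The nearest to miR-146a-5p was miR-146b-5p at a distance of 0.82, followed by miR-195a-5p at 0.85, and all others were further away. miR-146b-5p had miR-872-5p at 0.12 and miR-140-3p at 0.15. miR-193b-3p was the nearest to both miR-155-5p (0.087) and miR-132-3p (0.088, floored in H+G-Exo). miR-212-3p had miR-7231-5p at 0.043 and miR-365-2-5p at 0.054, and not its locus partner.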

How the data were processed

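Per the file headers, the authors scanned 3 one-colour Agilent mouse miRNA arrays and deposited one intensity value per spot, quantified with Agilent Feature Extraction 10.7.1.1 per the submitters' processing notes. The background had been subtracted, no scaling between arrays had been applied, and the arrays share 1 slide and 1 scan time. The authors' deposited table of processed values was taken to hold log2 values and served as an alternative; how it was normalized is not stated in the sources used here. Groups came from the treatment in the labels, and 0 columns of other series were present.

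Of 58594 spots per array, 2164 control spots were left out, as were 1466 outlier spots in H+G-Exo, 1369 in H-Exo and 1568 in N-Exo. 0 spots were saturated. Spot means were divided by the 75th percentile given in the report and raised to a floor of 0.0653, the highest of the 3 arrays' lowest detected scaled signals, before log2 was taken. The floor was left out where 2 members were set against each other. Precision is limited by the number of arrays, and the median coefficient of variation over spots of a probe was 13.4% in H+G-Exo, 14.0% in H-Exo and 13.5% in N-Exo. The standard error of a log2 difference covers spots only. Python 3.11.15, pandas 2.3.3, numpy 2.4.6 and, for normexp, limma 3.58.1 in R 4.3.3 were used. Normexp was run with an offset of 50. The code for the calls was run on simulated data with spread between spots only. That run cannot show how the calls hold between samples. Sequences and coordinates are RefSeq's (GRCm38.p6); the probe positions of the array files use mm9 and were not used.

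The named miRNAs are all 6 members, their other arms, up to 3 of each list with the largest difference per comparison, the 2 nearest patterns of each member and the marker miRNAs. The members, the lists and the rules were chosen with earlier results of these data known. Alternatives covered scaling, background correction, the authors' summaries, the choice of probe, the treatment of spots and the filter on dim probes.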

Additional observations from a re-analysis of the deposited data

How the results depend on the processing

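Each group is 1 array, so leaving out a replicate was not possible. No paired analysis was possible because each group has 1 array and no replicate numbers. In the hypoxia contrast (H-Exo over N-Exo), where the call rule gave 2 members, it gave 4 with the 75th percentile over all probes, the median over detected probes, the hybridization spike-in, the labelling spike-ins, no scaling or the software's total per miRNA, the additional ones being miR-155-5p and miR-132-3p, and 0 of the 2 measured with the dimmer probe. In the inhibitor contrast (H+G-Exo over H-Exo), where it gave 1, it gave 0 with the labelling spike-ins and 2 in the deposited value table (miR-212-3p and miR-132-3p, the second at -2.29). Without scaling and with the hybridization spike-in its 1 call was miR-146a-5p, higher at 1.09 and 1.00, in place of miR-212-3p. In the combined contrast (H+G-Exo over N-Exo), where it gave 5, it gave 2 of the 3 measured with the dimmer probe. Over all miRNAs, normexp with its offset of 50 gave 45 calls in place of 87 in the hypoxia contrast, 87 in place of 183 in the inhibitor contrast and 156 in place of 269 in the combined contrast. Without scaling and with the hybridization spike-in, the hypoxia contrast had 135 and 137 calls over all miRNAs in place of 87. The member counts of 4 under other scalings stand beside a shift of all miRNAs, whose median fell to as low as -0.50. Whether these counts go beyond that shift was not tested. miR-132-3p minus miR-212-3p in the inhibitor contrast had the opposite sign, -0.84, in the deposited value table. Members short of the rule also changed sign: in the inhibitor contrast miR-146b-5p reached 0.59, miR-155-5p 0.48 and miR-132-3p 0.35 without scaling, and miR-146a-5p -0.21 with normexp, and in the hypoxia contrast miR-212-3p reached -0.72 with the hybridization spike-in and miR-132-3p 0.04 with normexp. The cause of these changes was not tested. miR-146a-5p and miR-146b-5p were past the rule in the hypoxia contrast in each of 16 alternatives that gave a value (none came from their dimmer probes, undetected in H-Exo). In the combined contrast, miR-132-3p lost its call with normexp (-0.03) and with the median over spots (-0.99), and miR-155-5p with the dimmer probe (-0.67). Both of these miR-132-3p values are bounds, since the floor was set anew in each setting and its H+G-Exo signal was below it. Before scaling and floor, the median spot of miR-132-3p was 25.6 in H+G-Exo and 65.0 in N-Exo. Among scalings, the median of all miRNAs ran between -0.50 and 0.34 in the hypoxia contrast, between -0.42 and 0.57 in the inhibitor contrast and between -0.05 and 0.22 in the combined contrast. The share of calls that were higher ran between 0.730% and 28.7%, between 19.1% and 96.4%, and between 41.3% and 58.7% in that order of comparisons, the main scaling being at 28.7%, 19.1% and 41.3%. Leaving out the floor and matching spots by position were chosen after seeing the data, and neither changed a member's call.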

Other observations

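Spot position moved with brightness for the short miR-212-3p probe more than for the longer ones. Its mean over the left 82 columns was 26.1% under that over the right 82 in H+G-Exo, 30.5% under it in H-Exo and 27.5% under it in N-Exo. The left columns held spots of both brightness levels, so their mean is that of a mixture. For the other 4 measured members the left mean lay between 12.0% above (miR-146b-5p in H-Exo) and 11.4% under the right one (miR-132-3p in H-Exo), with miR-155-5p 10.7% under it in H+G-Exo. With spots matched by position, the standard error of miR-212-3p was 0.046 in the inhibitor contrast (H+G-Exo over H-Exo), against 0.11 unmatched, and its log2 difference was -1.66.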
